A study of Mus musculus with 18 samples.

Results

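The genes described here are 28 genes of sterol metabolism in mouse. Of these, 20 encode enzymes of cholesterol synthesis, with Ggps1 on its prenyl branch. Another 5 encode the sterol regulatory element-binding proteins (SREBPs) and the proteins that hold or escort them, and 3 act in sterol uptake and transfer. The genes were taken as a named list, chosen with earlier results of these data known, so shares set against all genes are description only. They were found by Ensembl identifier in an endothelial cell table and by symbol in a table of EO771 cells, a mouse breast cancer line. All 28 passed the filter on low values in both tables, where 18511 endothelial genes and 11602 EO771 genes were tested. Messenger RNA was measured by RNA sequencing in 18 libraries, which made 6 groups of 3. The endothelial cells came from wild-type female C57BL/6 mice that were 5 to 6 weeks old when obtained, and were sorted as CD45- cells with high CD31. Cells without the venule antigen PNAd were blood vessel endothelial cells (BECs), from the mammary fat pad (BEC normal) or from EO771 tumours (BEC tumour). Cells with PNAd were high endothelial cells (HECs), which line the venules by which lymphocytes enter lymph nodes, and came from inguinal lymph nodes of mice without tumours (HEC normal) or from nodes labelled as lymph node metastases (HEC tumour). EO771 cells received 100 nM 12-HETE, a lipid made from arachidonic acid, for 48 h, or the vehicle, 2% DMSO in saline. The study's figure legends give 3 independent experiments for the endothelial and for the EO771 data. The labels do not say that the libraries of a group came from separate mice or cultures. The p-values thus measure the spread between these libraries, which may be partly technical.

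Cholesterol is built from acetyl-CoA by way of mevalonate, the prenyl diphosphates, squalene and lanosterol. When the endoplasmic reticulum is rich in sterol, INSIG proteins hold SCAP and the SREBP precursors there, and when sterol falls SCAP carries the SREBPs to the Golgi, where they are cut and released to switch on synthesis and uptake genes. Insig1 is itself a target of the SREBPs, and its product closes the feedback loop. In endothelium the pathway supplies membrane sterol and the prenyl groups that anchor small GTPases.

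Endothelial libraries totalled 56.4 to 79.4 M units, and EO771 libraries 17.3 to 18.6 M counts. An endothelial unit was not a fragment, since low values rose in steps of about 3.69 units. The 5 endothelial markers summed to between 2046 and 2810 CPM (counts scaled to library size) in every endothelial library. Of the 5 high endothelial markers, Glycam1 and Chst4 were at the detection floor in both BEC groups, and the list summed to between 970 and 1327 CPM in HEC normal, between 2219 and 3052 CPM in HEC tumour and between 1.33 and 4.28 CPM in BECs, although Ccl21a was at the floor in HECs. The 5 epithelial markers summed to between 3051 and 3977 CPM in EO771 vehicle libraries and between 2042 and 2092 CPM in 12-HETE libraries. In these bulk libraries, fewer cells of a type and less RNA per cell cannot be told apart, and no molecular identifiers were used, so all intervals and floors cover counting error only.

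Promoter windows were available for 23 of the 28 genes (31 windows, RefSeq, GRCm38.p6), each running from 250 bases before to 50 bases after a transcription start. They are shown for the genes with the largest rises, Hmgcs1 and Insig1 in tumour BECs and Idi1 in EO771 cells, and for Mylip, which did not rise in tumour BECs and was at or near 0 in HECs. Capitals mark CCAAT, the box bound by NF-Y, a factor that works with SREBPs, which reads ATTGG where it lies on the other strand, and TCACNCCAC, a form of the sterol regulatory element. All 4 windows are on the plus strand, and lie at chr13:119690101-119690400, chr5:28071162-28071461, chr13:8885356-8885655 and chr13:45389492-45389791 in the order given.
Hmgcs1: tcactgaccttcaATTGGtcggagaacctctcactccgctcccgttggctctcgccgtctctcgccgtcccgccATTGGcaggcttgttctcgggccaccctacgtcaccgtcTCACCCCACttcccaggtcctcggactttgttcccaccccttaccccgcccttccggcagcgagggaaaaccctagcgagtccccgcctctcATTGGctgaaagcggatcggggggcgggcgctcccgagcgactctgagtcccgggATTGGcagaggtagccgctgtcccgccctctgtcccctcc
Insig1: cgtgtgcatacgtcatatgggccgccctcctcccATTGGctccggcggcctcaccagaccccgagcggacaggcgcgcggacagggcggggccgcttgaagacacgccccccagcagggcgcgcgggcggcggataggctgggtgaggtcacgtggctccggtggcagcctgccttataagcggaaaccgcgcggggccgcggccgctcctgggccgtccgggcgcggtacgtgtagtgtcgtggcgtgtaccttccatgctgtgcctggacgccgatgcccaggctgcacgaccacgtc
Idi1: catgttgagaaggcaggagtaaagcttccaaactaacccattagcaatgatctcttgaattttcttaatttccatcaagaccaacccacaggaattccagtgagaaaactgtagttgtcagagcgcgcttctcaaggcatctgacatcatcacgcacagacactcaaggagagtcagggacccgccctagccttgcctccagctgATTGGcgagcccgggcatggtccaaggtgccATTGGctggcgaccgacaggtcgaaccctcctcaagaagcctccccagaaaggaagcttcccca
Mylip: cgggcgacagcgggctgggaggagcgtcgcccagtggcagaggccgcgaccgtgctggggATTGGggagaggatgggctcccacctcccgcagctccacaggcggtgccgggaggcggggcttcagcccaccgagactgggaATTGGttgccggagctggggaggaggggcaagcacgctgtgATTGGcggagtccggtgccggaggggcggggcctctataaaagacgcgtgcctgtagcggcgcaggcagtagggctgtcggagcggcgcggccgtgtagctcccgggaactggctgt
TCACNCCAC occurred on either strand in 1 of the 31 windows, that of Hmgcs1, 137 bases before its start, and in 1.24% of all 32851 windows. CCAAT occurred in 22 windows of 21 genes, or 71% of the windows, against 37.4% of all windows. The shorter core CACNCCA, which TCACNCCAC contains and which is not marked, occurred in 7 windows of 6 genes, 22.6%, against 18.4% of all windows. These are matches of letters and not measured binding.

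The synthesis genes together were highest in BECs of tumours. The normalised counts of the 20 synthesis genes summed to 52534, 53155 and 57822 in the BEC normal libraries and to 97389, 101640 and 103618 in the BEC tumour libraries, listed from lowest to highest. In HECs the sums were 34171, 36670 and 36821 without tumour and 31602, 35206 and 36198 with tumour. The BEC groups were thus separate from each other and from HECs, while the 2 HEC groups overlapped. Per kilobase of exon, Acat2 was the highest of the 28 genes in all 4 endothelial groups, with a mean from 1283 normalised counts per kb in HEC tumour to 3878 in BEC tumour. Mylip and Tm7sf2 were the lowest in BECs, at 76.3 and 109 normalised counts per kb in BEC tumour.

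**Figure D1:**
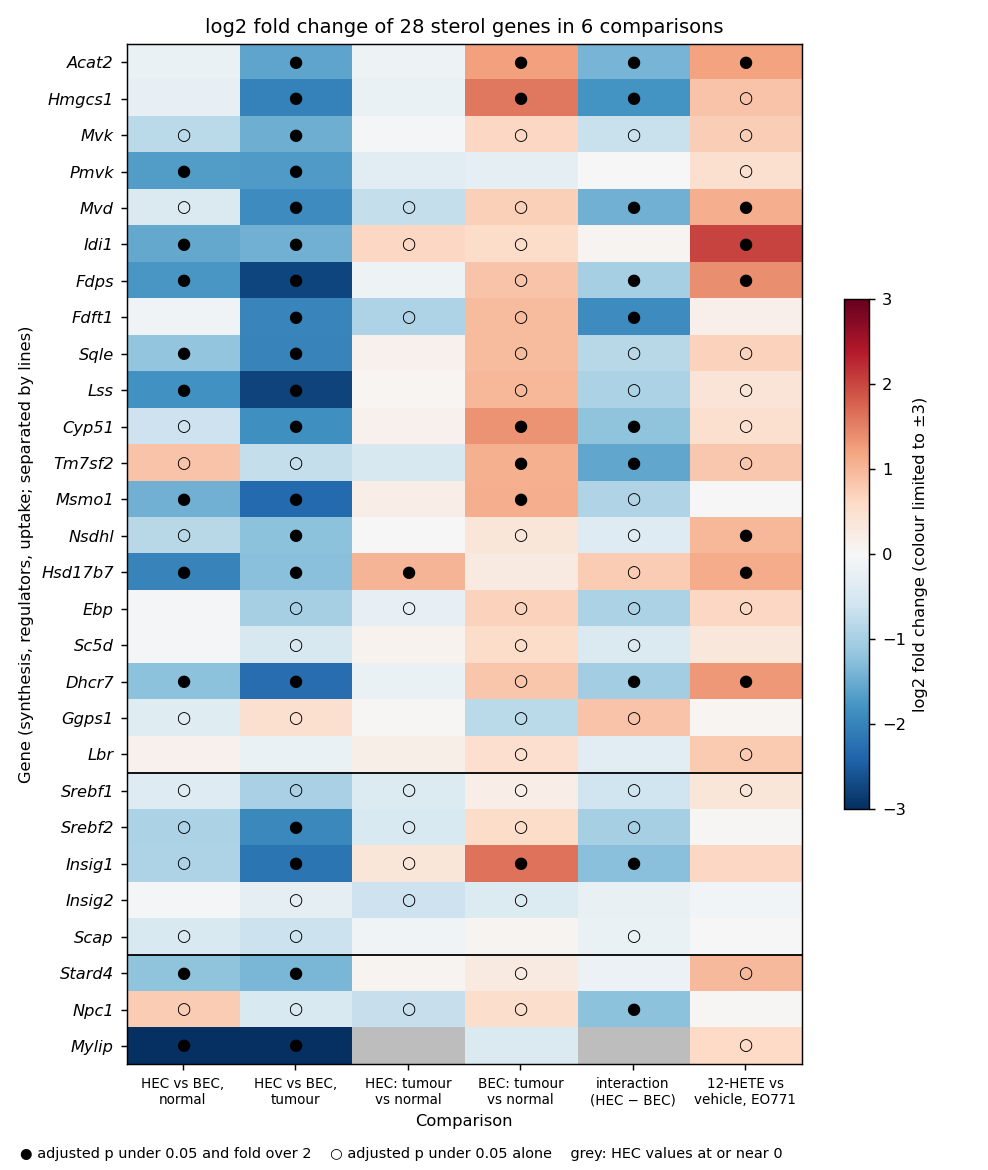
Colour shows the log2 fold change of each of the 28 genes (rows) in 6 comparisons (columns), limited to 3 in size; filled circles mark an adjusted p under 0.05 with a fold over 2, and open circles an adjusted p under 0.05 alone. Red, higher values fill most of the BEC tumour and 12-HETE columns, blue, lower values fill the HEC against BEC columns, and grey marks Mylip where HEC values were at or near 0.

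The first comparison asked how BECs differ when they line a tumour. Of the 28 genes, 22 rose and 2 fell with tumour in BECs by adjusted p alone (DESeq2 Wald test, Benjamini-Hochberg over all genes), against 26.5% and 27.2% of all genes tested. With a fold over 2 as well, 6 were called higher, against 12.4% of all genes, and none lower, against 10.8%. The median log2 fold change of the 28 genes was 0.58, and that of all genes was near 0. The called genes were Insig1, Hmgcs1, Cyp51, Acat2, Msmo1 and Tm7sf2. The 6 leukocyte markers summed to between 108 and 128 CPM in BEC normal and between 1462 and 1960 CPM in BEC tumour, despite the sort against CD45. The 5 epithelial markers went from between 3.61 and 6.92 CPM to between 14.3 and 84.3 CPM, and the 5 fibroblast and pericyte markers from between 186 and 192 CPM to between 32.3 and 56.5 CPM. The part of these cells in the rise was not tested. The adipocyte markers Adipoq, Plin1, Cidec, Lep and Retn were at the floor in BEC normal, and summed to between 0.655 and 0.789 CPM in BEC tumour.

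In the matching comparison in HECs the 28 genes changed about as often as all genes. With tumour, 3 of the 28 genes rose and 7 fell in HECs by adjusted p alone, against 16.9% and 18.5% of all genes. Only Hsd17b7 was called higher, against 4.58% of all genes, and no gene was called lower, against 3.21%. The median was −0.13, or −0.11 without Mylip. The 6 leukocyte markers summed to between 483 and 509 CPM in HEC normal and between 355 and 374 CPM in HEC tumour. The 5 fibroblast and pericyte markers went from between 22.4 and 23.4 CPM to between 10.6 and 11.6 CPM, with Col1a1 and Rgs5 at the floor in HEC tumour, while the high endothelial markers were higher in HEC tumour. The part of these shifts in the values was not tested. The difference of the 2 tumour changes was tested as an interaction, the change in HECs less that in BECs. It was negative in 25 of the 28 genes by value, among them Mylip, whose HEC values were at or near 0. By adjusted p alone it was lower in 20 and higher in 2 (background 23.8% and 22.9%). It was called lower in 10 and higher in none (background 12.1% and 11.2%). Its median was −0.92, or −0.90 without Mylip.

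**Figure D2:**
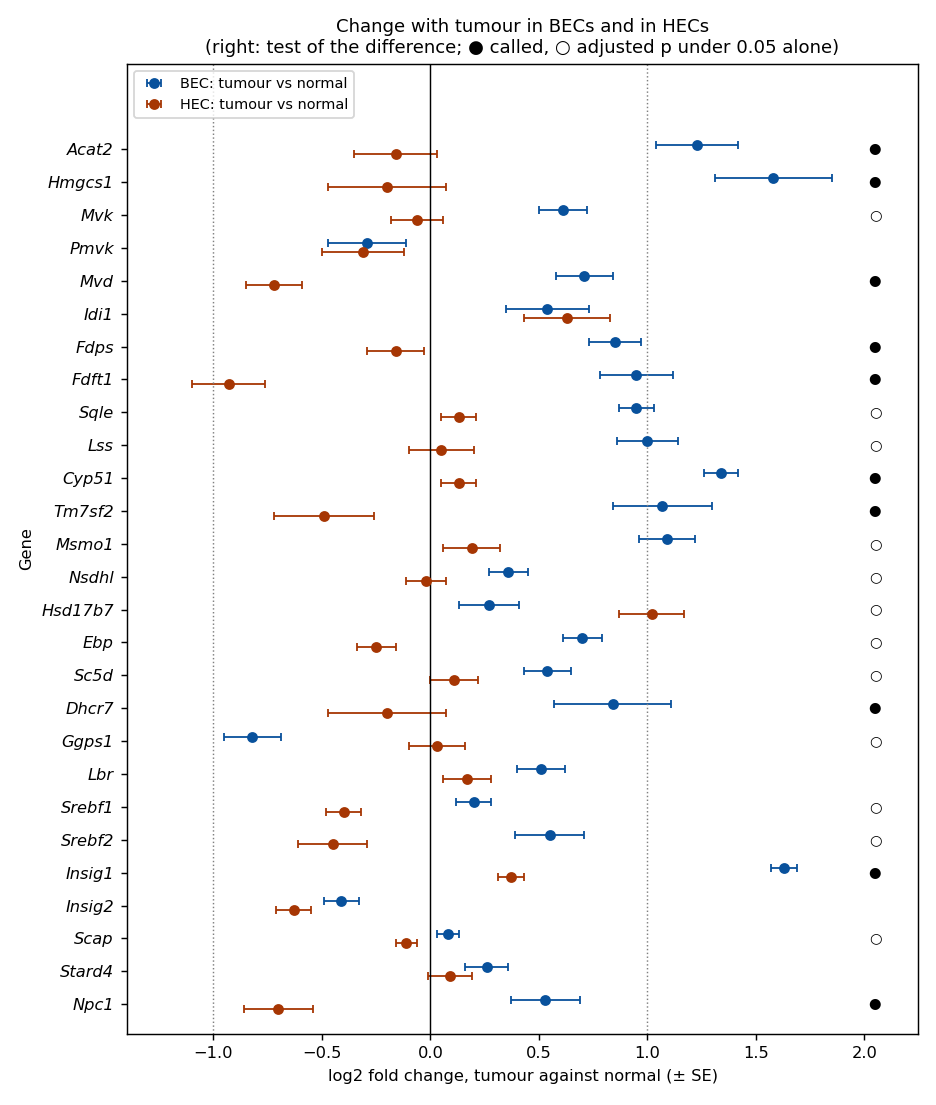
Points show the log2 fold change with tumour (± SE) of 27 genes in BECs (blue) and in HECs (brown); Mylip is left out because its HEC values are at or near 0. BEC values lie to the right of HEC values for most genes, and the symbols at the right give the test of the difference.

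HECs were also compared with BECs directly. Because BECs were taken from fat pad or tumour and HECs from lymph nodes, the effects of cell type and of tissue cannot be told apart. The leukocyte markers were lower in BEC normal (108 to 128 CPM) than in HEC normal (483 to 509 CPM). They were higher in BEC tumour (1462 to 1960 CPM) than in HEC tumour (355 to 374 CPM), and fibroblast and pericyte markers were higher in both BEC groups. The part of such cells in the differences between HECs and BECs, here and below, was not tested. Without tumour, 10 of the 28 genes were called lower in HECs, against 15.1% of all genes, and none higher, against 17.1%. By adjusted p alone 19 were lower and 2 higher, against 31.9% and 31.4%. With tumour, 19 were called lower and none higher, against 10.7% and 11.2%, and by adjusted p alone 26 were lower and 1 higher, against 28.4% and 25.9%. The medians were −0.72 and −1.53, and setting Mylip at its lower bound left both as they were. All 10 genes called lower without tumour were also called lower with tumour. The comparisons hold different libraries but were taken from the same fit. The matching overlap among all genes is not reported here, so this overlap is description only.

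Acat2 and Hmgcs1 encode the enzymes that join acetyl-CoA units at the start of the pathway. Hmgcs1 stood at 3066, 4126 and 4178 normalised counts in BEC normal and at 11747, 11273 and 11062 in BEC tumour. In HECs it stood at 3483, 3005 and 3100 without tumour and at 1407, 3196 and 3719 with tumour. The 3 tumour BEC libraries were above all others, and 1 tumour HEC library was below all others. Hmgcs1 rose 3.0-fold with tumour in BECs (log2 fold change 1.58 ± 0.27, SE; adjusted p = 1.16e-08). In HECs its value was −0.20 ± 0.27 (adjusted p = 0.607), and without that low library, HEC tumour replicate 1, it was 0.12. The interaction was −1.79 ± 0.38 (adjusted p = 9.02e-06). Acat2 went from a mean of 4202 ± 839 (SD, n = 3) to 9865 ± 1159 normalised counts in BECs, a log2 fold change of 1.23 ± 0.19, and from 3647 ± 568 to 3265 ± 663 in HECs, with an interaction of −1.39 ± 0.26. Neither gene differed detectably between HEC normal and BEC normal (−0.25 ± 0.27 and −0.20 ± 0.19), while both were lower in HECs among tumour libraries (−2.03 ± 0.27 and −1.59 ± 0.19).

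Mvk, Pmvk and Mvd carry mevalonate to isopentenyl diphosphate, which Idi1 isomerises. Mvd rose by 0.71 ± 0.13 on the log2 scale in BECs and fell by 0.72 ± 0.13 in HECs, with 1713 ± 190 and 2807 ± 181 normalised counts in BECs and 1260 ± 144 and 764 ± 79 in HECs (SD, n = 3, normal then tumour), and its interaction was −1.43 ± 0.18. Pmvk and Idi1 did not follow this pattern. Pmvk changed by −0.29 ± 0.18 in BECs and −0.31 ± 0.19 in HECs, neither past the test, and was lower in HECs both without (−1.67 ± 0.18) and with tumour (−1.69 ± 0.19). Idi1 stood at 2429, 1813 and 2237 normalised counts in normal BECs, 3144, 3353 and 2902 in tumour BECs, 559, 675 and 1006 in normal HECs and 1106, 1201 and 1151 in tumour HECs. It rose in both cell types, by 0.54 ± 0.19 in BECs (not past the test without BEC normal or BEC tumour replicate 2, adjusted p = 0.084 and 0.0631) and 0.63 ± 0.20 in HECs, with an interaction of 0.09 ± 0.28 (adjusted p = 0.82). It was lower in HECs by 1.53 ± 0.20 without and 1.44 ± 0.19 with tumour on the log2 scale. Mvk rose with tumour in BECs (0.61 ± 0.11), and was lower in HECs by 0.80 ± 0.12 without tumour and by 1.47 ± 0.12 with tumour, the latter called.

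Fdps makes farnesyl diphosphate, from which Ggps1 draws the geranylgeranyl group used on proteins and Fdft1 makes squalene. Fdps averaged 4505 ± 536 and 8107 ± 785 normalised counts in BEC normal and BEC tumour and 1342 ± 142 and 1205 ± 91.1 in the HEC groups in the same order. It rose in BECs (0.85 ± 0.12), did not pass the test in HECs (−0.16 ± 0.13), and was called lower in HECs than in BECs without and with tumour (−1.75 ± 0.12 and −2.75 ± 0.12). Its interaction of −1.00 ± 0.18 lay just past the fold threshold. It fell short of it with library total scaling (−0.97) and, at −0.97 to −0.91, when BEC normal replicate 1, BEC tumour replicate 3, HEC normal replicate 1 or 3 or HEC tumour replicate 1 was left out. Fdft1 moved in opposite directions. Its values were 3835, 2749 and 4275 normalised counts in normal BECs, 7541, 7918 and 5555 in tumour BECs, 3345, 3170 and 3608 in normal HECs and 1736, 1896 and 1675 in tumour HECs. The groups were separate in both cell types, with a rise of 0.95 ± 0.17 in BECs (adjusted p = 1.19e-07), a fall of 0.93 ± 0.17 in HECs (adjusted p = 6.16e-07) and an interaction of −1.88 ± 0.24 (adjusted p = 8.89e-14), the lowest of the 28 genes apart from Mylip. Ggps1 was the only synthesis gene that fell past the test in tumour BECs (1695 ± 185 to 961 ± 122 normalised counts, log2 fold change −0.82 ± 0.13, adjusted p = 6.82e-10). It did not pass the test in HECs (0.03 ± 0.13), and had a positive interaction (0.85 ± 0.18, adjusted p = 1.25e-05). Exons of Fdps overlap Gm43738 on the same strand, and those of Fdft1 and Ggps1 overlap Ctsb and Arid4b. Their values may include reads of these neighbours or lack reads shared with them. The same holds for Hmgcs1 (Gm48342), Idi1 (Gm48574), Lss (4930483K19Rik), Cyp51 (Akap9) and Lbr (Dnah14 and, on the same strand, Gm26004).

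Sqle and Lss turn squalene into lanosterol, the first sterol, and Cyp51 removes its first methyl group. Sqle averaged 4317 ± 108 normalised counts in normal BECs, 8369 ± 100 in tumour BECs, 1908 ± 107 in normal HECs and 2087 ± 220 in tumour HECs, a rise of 0.95 ± 0.08 in BECs with an interaction of −0.83 ± 0.12. Lss stood at 2047, 2073 and 2242 normalised counts in BEC normal and at 4097, 4214 and 4401 in BEC tumour. Its log2 fold change of 1.00 ± 0.14 fell just short of the fold threshold and passed it in edgeR (1.03). In HECs it lay between 455 and 695 normalised counts in both states. Among tumour libraries it was 6.83-fold lower in HECs than in BECs (−2.77 ± 0.14, adjusted p = 3.64e-81). This was the lowest value of the synthesis genes in that comparison, close to that of Fdps (−2.75). Cyp51 went from 4530, 4358 and 4716 normalised counts in BEC normal to 11171, 11109 and 12245 in BEC tumour (1.34 ± 0.08, adjusted p = 7.85e-60). In HECs it stood at 3090, 2865 and 2819 without and 2936, 3179 and 3513 with tumour, so these groups overlapped, and the interaction was −1.21 ± 0.12. Against BECs, HECs were lower for Sqle (−1.18 ± 0.08 without and −2.00 ± 0.08 with tumour), for Lss without tumour (−1.82 ± 0.14) and for Cyp51 with tumour (−1.84 ± 0.08). Without tumour, Cyp51 was lower by 0.63 ± 0.08, short of the fold threshold.

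Msmo1, Nsdhl and Hsd17b7 strip the remaining methyl groups of the sterol, and these 3 genes differed in how they moved. Msmo1 rose in BECs (3380 ± 103 to 7176 ± 1376 normalised counts, 1.09 ± 0.13), a call lost without BEC tumour replicate 1 (0.98). In HECs, Msmo1 went from 1246 ± 75.6 to 1423 ± 22.5 normalised counts, which did not pass the test (0.19 ± 0.13). Nsdhl rose by 0.36 ± 0.09 in BECs and was −0.02 ± 0.09 in HECs. Hsd17b7 gave the reverse. It stood at 1551, 1167 and 1289 normalised counts in normal BECs, 1645, 1627 and 1577 in tumour BECs, 378, 281 and 344 in normal HECs and 694, 709 and 636 in tumour HECs. It rose in HECs by 1.02 ± 0.15 (adjusted p = 3.25e-11), but not past the test in BECs (0.27 ± 0.14, adjusted p = 0.0797), with an interaction of 0.75 ± 0.20 (adjusted p = 0.0006). The call in HECs sat at the fold threshold, and was lost in edgeR (1.00) and without HEC normal replicate 2 (0.91) or HEC tumour replicate 2 (0.99). Against BECs, all 3 were called lower in HECs with tumour (Msmo1 −2.33 ± 0.13, Nsdhl −1.22 ± 0.09, Hsd17b7 −1.25 ± 0.14), and Msmo1 (−1.44 ± 0.13) and Hsd17b7 (−2.00 ± 0.14) without tumour.

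The remaining synthesis genes encode the late reductases, isomerase and desaturase. Dhcr7, which performs a final reduction, averaged 1426 ± 147 and 2548 ± 731 normalised counts in BECs and 604 ± 83 and 525 ± 205 in HECs, a rise of 0.84 ± 0.27 in BECs that did not pass the test without BEC tumour replicate 2 (adjusted p = 0.0582). It was called lower in HECs without (−1.24 ± 0.27) and with tumour (−2.28 ± 0.27), and its interaction of −1.04 ± 0.39 (adjusted p = 0.0178) was lost, at −0.99 to −0.85, when BEC normal replicate 1 or 2, BEC tumour replicate 1 or 2, HEC normal replicate 3 or HEC tumour replicate 1 or 3 was left out. Tm7sf2 and Lbr encode sterol reductases of shared function, and LBR is also a protein of the inner nuclear membrane. Tm7sf2 was the scarcer, with 228 ± 55.7 normalised counts in normal BECs, 478 ± 62.9 in tumour BECs, 409 ± 54.9 in normal HECs and 291 ± 50.4 in tumour HECs. It rose in BECs (1.07 ± 0.23), a call lost without BEC normal replicate 1 (0.89) or BEC tumour replicate 3 (0.97), and its interaction was −1.56 ± 0.32. It was higher in HECs than in BECs without tumour (0.85 ± 0.23, adjusted p = 0.000505) and lower with tumour (−0.72 ± 0.23, adjusted p = 0.00391). Its exons overlap Vps51 on the same strand. Lbr rose in BECs (0.51 ± 0.11) and did not pass the test in the other endothelial comparisons. Ebp, a sterol isomerase, and Sc5d, a desaturase, rose in BECs by 0.70 ± 0.09 and 0.54 ± 0.11, and with tumour were lower in HECs than in BECs by 0.99 ± 0.09 and 0.47 ± 0.11. Ebp fell in HECs by 0.25 ± 0.09, which did not pass the test with library total scaling (adjusted p = 0.092) or without HEC normal replicate 3 or HEC tumour replicate 1 or 3 (adjusted p from 0.0527 to 0.103).

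Among the regulators, Insig1 and Insig2 moved apart. Insig1 (chromosome 5, 28071363 to 28078662, plus strand) stood at 2310, 2402 and 2329 normalised counts in normal BECs, 7393, 7478 and 6969 in tumour BECs, 1255, 1251 and 1194 in normal HECs and 1560, 1649 and 1575 in tumour HECs. No 2 of these groups overlapped. It rose 3.1-fold in BECs (1.63 ± 0.06, adjusted p = 9.75e-189), the largest rise of the 28 genes there, and by 0.37 ± 0.06 in HECs (adjusted p = 1.34e-08), with an interaction of −1.26 ± 0.08. It was lower in HECs by 0.93 ± 0.06 without and 2.19 ± 0.06 with tumour. Insig2 encodes the related retention protein. It stood at 2083, 1815 and 1983 normalised counts in normal BECs, 1474, 1414 and 1552 in tumour BECs, 1953, 1804 and 1862 in normal HECs and 1263, 1182 and 1193 in tumour HECs. It fell with tumour in both cell types, by 0.41 ± 0.08 in BECs (adjusted p = 1.36e-06) and 0.63 ± 0.08 in HECs (adjusted p = 2.13e-13), and the interaction did not pass the test (−0.22 ± 0.11, adjusted p = 0.0985). Between cell types it was −0.07 ± 0.08 without tumour and −0.29 ± 0.08 with tumour.

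Srebf2 encodes the SREBP that acts mainly on cholesterol genes, and Srebf1 those that act mainly on fatty acid genes. Srebf2 stood at 11693, 8290 and 12055 normalised counts in normal BECs, 15921, 14014 and 16900 in tumour BECs, 4424, 6015 and 6191 in normal HECs and 4220, 4061 and 3923 in tumour HECs. The groups were separate within each cell type, and Srebf2 rose in BECs (0.55 ± 0.16, adjusted p = 0.00158) and fell in HECs (−0.45 ± 0.16, adjusted p = 0.0181), with an interaction of −0.99 ± 0.23 (adjusted p = 4.79e-05). The fall in HECs did not pass the test with library total scaling (adjusted p = 0.0588) or without HEC normal replicate 2 or 3 or HEC tumour replicate 2 or 3 (adjusted p from 0.0566 to 0.113). Srebf2 was 3.84-fold lower in HECs than in BECs with tumour (−1.94 ± 0.16) and lower by 0.95 ± 0.16 on the log2 scale without. Srebf1 averaged 4684 ± 357 normalised counts in normal BECs, 5373 ± 416 in tumour BECs, 3579 ± 100 in normal HECs and 2718 ± 128 in tumour HECs. It rose slightly in BECs (0.20 ± 0.08, adjusted p = 0.0321; from 0.0865 to 0.177 without BEC normal replicate 1 or 3 or BEC tumour replicate 2) and fell in HECs (−0.40 ± 0.08), with an interaction of −0.60 ± 0.12, and was lower in HECs by 0.39 ± 0.08 without and 0.98 ± 0.08 with tumour. Scap, the SREBP escort, was the steadiest of the 5 regulators with tumour, at 0.08 ± 0.05 in BECs and −0.11 ± 0.05 in HECs, neither past the test. It was lower in HECs by 0.45 ± 0.05 and 0.64 ± 0.05, and its interaction of −0.19 ± 0.07 did not pass the test when its values were divided by their step (adjusted p = 0.0597) or when 1 of 6 libraries was left out (adjusted p from 0.0527 to 0.0845). Exons of Srebf1 overlap Rai1 and Mir6922, and those of Scap overlap 5830462I19Rik.

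**Figure D3:**
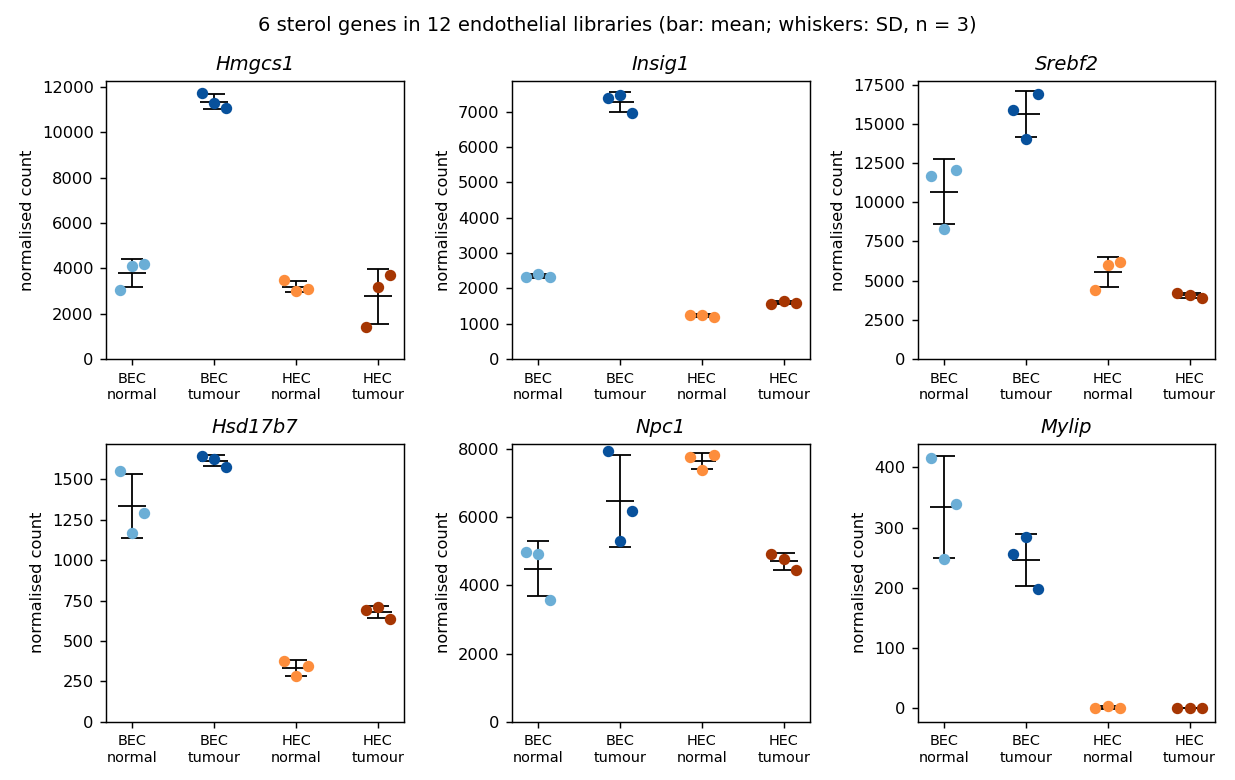
Normalised counts of 6 genes in the 12 endothelial libraries; points are libraries, bars means and whiskers SD (n = 3). Hmgcs1 and Insig1 are highest in BEC tumour, Hsd17b7 rises in HECs, Npc1 is highest in HEC normal and BEC tumour, and Mylip is at or near 0 in HECs.

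The uptake genes did not move as a unit. Stard4, a carrier of sterol between membranes, averaged 2827 ± 177 and 3377 ± 207 normalised counts in BECs and 1219 ± 98 and 1297 ± 106 in HECs, was called lower in HECs in both states (−1.21 ± 0.10 and −1.38 ± 0.10), and rose slightly with tumour in BECs (0.26 ± 0.10, adjusted p = 0.0167), though not past the test without BEC normal replicate 2 or 3 or BEC tumour replicate 1 (adjusted p from 0.0594 to 0.11). Npc1, which exports cholesterol from lysosomes, stood at 4985, 4927 and 3566 normalised counts in normal BECs, 7941, 5314 and 6171 in tumour BECs, 7779, 7388 and 7818 in normal HECs and 4930, 4766 and 4440 in tumour HECs. It rose in BECs (0.53 ± 0.16) and fell in HECs (−0.70 ± 0.16), with an interaction of −1.23 ± 0.22 (adjusted p = 2.18e-07), and it was higher in HECs without tumour (0.77 ± 0.16) and lower with tumour (−0.46 ± 0.16), the latter not past the test without BEC tumour replicate 1 (−0.29, adjusted p = 0.0858). Exons of Npc1 overlap Gm15956 and Rmc1.

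Mylip (chromosome 13, 45389742 to 45412022, plus strand) encodes a ubiquitin ligase that marks lipoprotein receptors for degradation, and sterol excess is known to raise it by way of liver X receptors rather than SREBPs. It stood at 416, 248 and 339 normalised counts in BEC normal and 256, 285 and 199 in BEC tumour. In HECs it stood at 0, 4.07 and 0 without tumour and at 0 in all 3 libraries with tumour. The BEC groups overlapped (−0.44 ± 0.35, adjusted p = 0.293), and BECs and HECs were wholly apart. Against a floor of 3 fragments per library, or 11.1 units, Mylip was at least 22.3-fold lower in HEC tumour than in BEC tumour. Between HEC normal and BEC normal, 1 fragment stood against 277, a ratio of 280 with an exact 95% counting interval from 49.9 to 11107. Both differences were called (adjusted p = 1.58e-22 without and 5.91e-16 with tumour). No fold is read between the HEC groups, both at or under the floor.

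In EO771 cells, 12-HETE was compared with vehicle. By adjusted p alone 19 of the 28 genes rose and none fell, against 22.7% and 24.2% of all genes, and 7 were called higher and none lower, against 2.38% and 7.79%. The median log2 fold change was 0.61, and 0.00 over all genes. The called genes were Idi1, Fdps, Dhcr7, Acat2, Hsd17b7, Mvd and Nsdhl, all of them synthesis genes.

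The vehicle libraries were uneven for these genes. Vehicle replicate 2 was the lowest of the 3 vehicle libraries in 21 of the 28 genes, or 75%, against 40.6% of all genes tested. The synthesis genes summed to 9296, 13539 and 13756 normalised counts in the vehicle libraries, from lowest to highest, and to 18288, 18457 and 18674 with 12-HETE. Without vehicle replicate 2, 3 genes were called higher rather than 7, 18 rose by adjusted p alone, and 1 fell, Srebf2 (−0.27, adjusted p = 0.00727). Over the 6 fits that left out 1 library, between 15 and 20 genes rose by adjusted p alone, with 15, 15 and 16 when 12-HETE replicate 1, 2 or 3 was left out. Mitochondrial transcripts made up between 0.718% and 0.816% of counts with vehicle and between 2.24% and 2.45% with 12-HETE. Leaving them out of the size factors kept the count of genes called higher at 7. Marker lists also moved apart with the treatment. The epithelial markers were lower with 12-HETE, and the 5 fibroblast and pericyte markers went from between 390 and 613 CPM to between 998 and 1037 CPM, with Pdgfrb and Rgs5 at the floor with 12-HETE. The part of these shifts in the result was not tested.

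**Figure D4:**
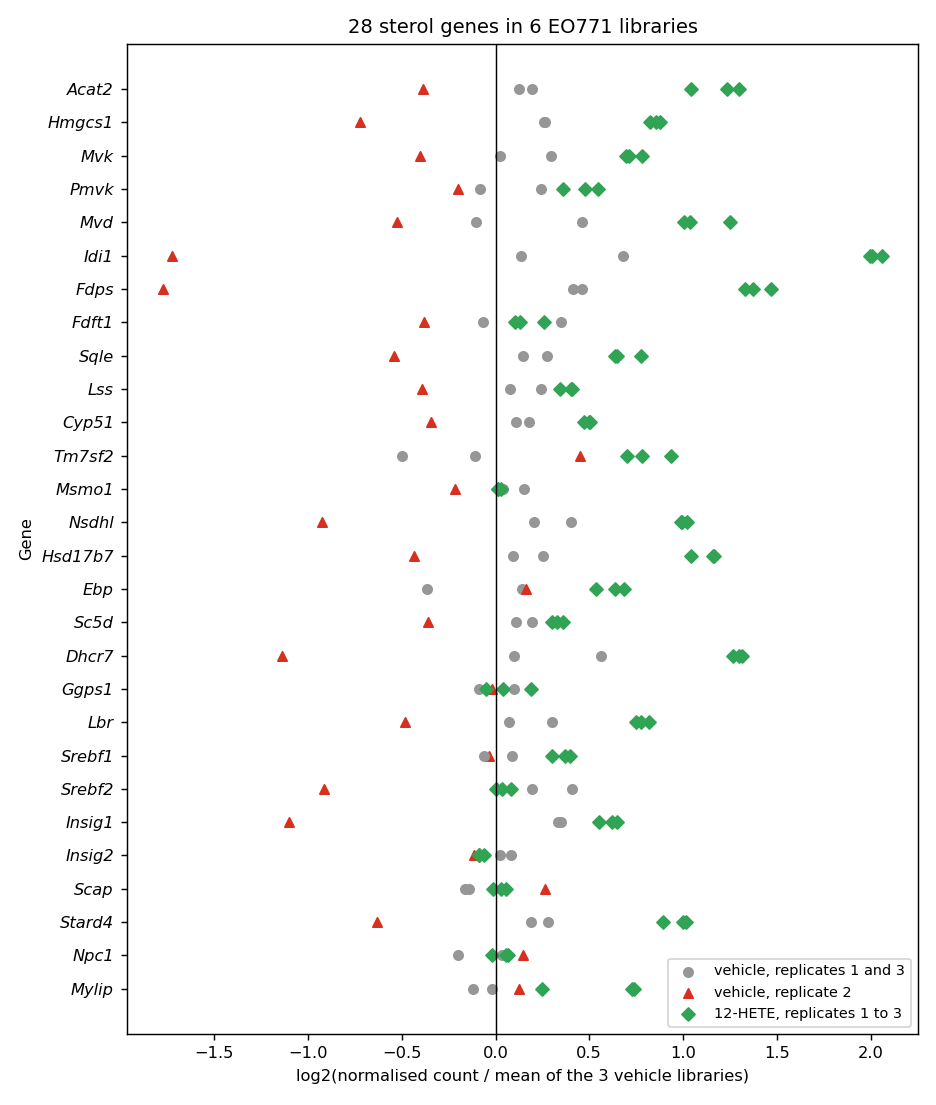
Each point is the normalised count of a gene in 1 EO771 library over the mean of the 3 vehicle libraries, on a log2 axis. The 12-HETE libraries (green) lie close together and, for most synthesis genes, to the right of the vehicle mean. Vehicle replicate 2 (red) lies furthest left in 21 of 28 genes.

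Idi1 changed most. It stood at 76.2, 21 and 111 normalised counts with vehicle and at 277, 290 and 279 with 12-HETE, 4.08-fold higher (2.03 ± 0.42, adjusted p = 7.45e-06). With the replicate number as a block in the fit its value was 2.28 ± 0.67 (adjusted p = 0.00282). Acat2 stood at 231, 154 and 220 with vehicle and at 496, 416 and 474 with 12-HETE (1.20 ± 0.18, adjusted p = 8.7e-10). Both remained called without vehicle replicate 2. Fdps, although the fourth of the 28 genes per kilobase in BEC normal, was the lowest of them per kilobase in EO771 cells. Its exons overlap Gm43738 on the same strand and reads may have been lost there, so this low level is uncertain. Fdps stood at 21.8, 4.78 and 22.5 normalised counts with vehicle and at 41.1, 42.4 and 45.3 with 12-HETE (1.40 ± 0.50, adjusted p = 0.014). Its call was lost without vehicle replicate 2 (0.95) and without any 1 of the 12-HETE libraries (adjusted p from 0.0707 to 0.0962).

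Mvd stood at 144, 72.6 and 97.2 normalised counts with vehicle and 249, 210 and 215 with 12-HETE (1.10 ± 0.25), and Dhcr7 at 261, 80.3 and 189 and then 440, 425 and 435 (1.29 ± 0.33). Nsdhl stood at 207, 94.6 and 237 and then 357, 364 and 356 (1.00 ± 0.29), and Hsd17b7 at 189, 131 and 211 and then 364, 397 and 395 (1.12 ± 0.19). In these 4 genes every 12-HETE library was above every vehicle library. The share of all genes separated in this way is not reported here, so the separation is given as description only. Without vehicle replicate 2 the rises were 0.88 for Mvd, 0.93 for Dhcr7, 0.69 for Nsdhl and 0.94 for Hsd17b7, short of the fold threshold and past the adjusted p. Nsdhl also fell short in edgeR (0.99), with library total scaling (0.97) and without 12-HETE replicate 2 (0.99). In contrast, Tm7sf2, for which that library was the highest with vehicle, went from 0.81 ± 0.27 to 1.09 and was called, but did not pass the test without vehicle replicate 1 (adjusted p = 0.0553) or 12-HETE replicate 1 (adjusted p = 0.0759). Hmgcs1 rose by 0.85 ± 0.23, Sqle by 0.69 ± 0.19, Mvk by 0.73 ± 0.20, Lbr by 0.78 ± 0.18, Ebp by 0.62 ± 0.16, Cyp51 by 0.49 ± 0.15, Pmvk by 0.47 ± 0.16 and Lss by 0.39 ± 0.17, all under 2-fold. Lss did not pass the test in edgeR, with library total scaling or without 1 of 4 libraries (adjusted p from 0.0646 to 0.156), nor Pmvk without 12-HETE replicate 1 or 2 (adjusted p = 0.0947 and 0.0753). Fdft1 (0.16 ± 0.19), Msmo1 (0.02 ± 0.12), Sc5d (0.33 ± 0.15) and Ggps1 (0.06 ± 0.13) did not pass the test. Sc5d passed when the replicate number was a block in the fit (0.35 ± 0.14, adjusted p = 0.033).

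The SREBP genes themselves moved little with 12-HETE. Srebf1, the highest of the 28 genes per kilobase in EO771 cells, stood at 3929, 3608 and 3537 normalised counts with vehicle and 4854, 4768 and 4542 with 12-HETE (0.36 ± 0.09, adjusted p = 0.000173). Srebf2 stood at 3202, 1282 and 2770 with vehicle and 2562, 2479 and 2422 with 12-HETE, so that the treated libraries lay inside the range of the vehicle libraries (0.04 ± 0.27, adjusted p = 0.912). Insig1 stood at 355, 130 and 351 with vehicle and 436, 408 and 429 with 12-HETE, without overlap. It did not pass the test without a block (0.61 ± 0.31, adjusted p = 0.0972) and passed with the replicate number as a block (0.73 ± 0.25, adjusted p = 0.0106). Insig2 (−0.08 ± 0.10) and Scap (0.02 ± 0.14) did not pass the test.

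Of the uptake genes, Stard4 stood at 833, 471 and 889 normalised counts with vehicle and 1464, 1359 and 1479 with 12-HETE (0.97 ± 0.21, adjusted p = 3.26e-05), short of the fold threshold and past it with the replicate block (1.02 ± 0.16, adjusted p = 7.52e-09) and without vehicle replicate 1 (1.07) or 3 (1.14) or 12-HETE replicate 2 (1.01). Mylip stood at 81.1, 89.8 and 75.8 with vehicle and 97.6, 137 and 136 with 12-HETE (0.59 ± 0.23, adjusted p = 0.0252), and did not pass with the block (0.57 ± 0.30, adjusted p = 0.114) or without vehicle replicate 1 or 3 or 12-HETE replicate 2 or 3 (adjusted p from 0.0919 to 0.175). Npc1 was level (0.03 ± 0.13, adjusted p = 0.842), at 740, 799 and 629 normalised counts with vehicle and 756, 714 and 752 with 12-HETE.

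The wider pathway was followed in 40 other genes, with values from the fit with group as the only term. The alternatives, such as leaving out a library, are not reported for these genes. Calls with 12-HETE or near the fold threshold may thus rest on single libraries. Among all genes tested, 26.5% rose and 27.2% fell with tumour in BECs by adjusted p alone, 16.9% rose and 18.5% fell in HECs, and 22.7% rose and 24.2% fell with 12-HETE. Of 13 fatty acid genes that SREBPs also control, 9 rose and 2 fell with tumour in BECs by adjusted p alone, and 5 were called higher, against 12.4% of all genes, namely Scd2 (2.51 ± 0.63) and Fads1 (1.11 ± 0.04) and Fads2 (2.35 ± 0.06), which desaturate fatty acids, Lpin1 (2.00 ± 0.12), a phosphatidate phosphatase, and Acss2 (1.85 ± 0.09), which makes acetyl-CoA from acetate. In HECs 1 of the 13 rose and 6 fell with tumour, none past the fold threshold, and 6 had a called negative interaction, against 12.1% of all genes, Fads2 (−3.01 ± 0.09), Lpin1 (−2.75 ± 0.17), Acss2 (−2.39 ± 0.13), Scd1 (−1.20 ± 0.13), Fads1 (−1.09 ± 0.05) and Fasn (−1.01 ± 0.18). In EO771 cells 9 of the 13 rose and 1 fell with 12-HETE, with the elongases Elovl6 (1.72 ± 0.22) and Elovl5 (1.28 ± 0.13) and Scd2 (1.49 ± 0.25) called higher and Acacb, an acetyl-CoA carboxylase, called lower (−1.90 ± 0.25), against 2.38% of all genes called higher and 7.79% lower. Without tumour, Scd2 (−2.66 ± 0.63), Acly (−1.09 ± 0.04) and Elovl6 (−1.03 ± 0.27) were called lower and Lpin1 (1.88 ± 0.13) higher in HECs than in BECs, against 15.1% and 17.1% of all genes. With tumour 8 of the 13 were called lower and none higher, against 10.7% and 11.2% of all genes, from Scd2 (−3.72 ± 0.63), Fads2 (−2.14 ± 0.06), Acss2 (−2.05 ± 0.09) and Scd1 (−2.03 ± 0.09) to Fasn (−1.73 ± 0.13), Acly (−1.33 ± 0.04), Acaca (−1.13 ± 0.09) and Elovl6 (−1.05 ± 0.27).

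The 7 genes that handle SREBPs and INSIGs did not share the rise in tumour BECs. There 1 rose and 4 fell by adjusted p alone, against 26.5% and 27.2% of all genes, none past the fold threshold. With 12-HETE 4 rose and none fell, against 22.7% and 24.2%. Mbtps2, the second SREBP protease, was called (1.08 ± 0.29, adjusted p = 0.000904), against 2.38% of all genes called higher. Mbtps1, the first protease, was lower in HECs than in BECs both without (−1.92 ± 0.06) and with tumour (−1.00 ± 0.06). Faf2, which takes part in degradation from the endoplasmic reticulum, was also lower without tumour (−1.36 ± 0.07). Among all genes tested, 15.1% were called lower in HECs than in BECs without tumour and 10.7% with tumour. Of 13 genes of sterol traffic, storage and efflux, 6 rose and 4 fell with tumour in BECs, the latter near the share of all genes. Nr1h3, which encodes a liver X receptor, was called higher there (1.66 ± 0.30) and Ch25h, a cholesterol hydroxylase, lower (−1.04 ± 0.07). Of all genes, 12.4% were called higher and 10.8% lower in that comparison. In HECs with tumour 3 rose and 7 fell, against 16.9% and 18.5% of all genes. The efflux transporter Abcg1 was called lower there (−1.01 ± 0.21), against 3.21% of all genes. The interaction was called lower for Nr1h3 (−1.44 ± 0.44) and Nceh1 (−1.05 ± 0.21) and higher for Ch25h (1.39 ± 0.10). Among all genes 12.1% were called lower and 11.2% higher in this term. Nr1h3 (−1.37 ± 0.31 without and −2.81 ± 0.31 with tumour) and the lysosomal lipase gene Lipa (−1.23 ± 0.10 and −2.15 ± 0.10) were called lower in HECs than in BECs, and so was Nceh1, a cholesteryl ester hydrolase, with tumour (−1.01 ± 0.15). Of these genes, 12 were tested in EO771 cells, where 1 rose and 5 fell by adjusted p alone. Of 7 isoprenoid branch genes 1 rose and 1 fell with tumour in BECs, and 2 rose and 2 fell with 12-HETE. These shares were below or near those of all genes. Pdss1, an enzyme of ubiquinone synthesis, was called higher with tumour in HECs (1.26 ± 0.13), against 4.58% of all genes. Its interaction was 1.22 ± 0.18.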

How the data were processed

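Messenger RNA was measured in 18 mouse libraries, 3 in each of 6 groups taken from the labels. Per the study's methods, the authors aligned reads to GRCm38 with STAR 2.6.0c and counted fragments per gene with featureCounts 1.6.2. The deposited endothelial values were treated as estimated counts (expected counts), because whole-number low values rose in steps of between 3.645 and 3.715 units in the 12 libraries; totals divided by the step gave 15.3 to 21.4 M. The deposited EO771 values were raw counts per gene symbol. The methods and the labels name different library kits, and whether counting used strand is not given in the sources used here, so values of genes with overlapping exons are uncertain. Coordinates and exon lengths are those of GENCODE M21 on GRCm38. Of the endothelial identifiers, 260 had no symbol, and 33 EO771 symbols stood on more than 1 line and 26 had been turned into dates, none of them among the 28 genes.

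Genes with a mean value of at least 10 were tested with DESeq2 1.42.0 in R 4.3.3 (two-sided Wald test, Benjamini-Hochberg over all genes tested). The 12 endothelial libraries were fitted together and the 6 EO771 libraries apart, with group as the only term. A gene was called at an adjusted p under 0.05 with an absolute log2 fold change over 1, and members past the adjusted p alone were counted too. Levels are DESeq2 normalised counts and are not compared between the tables. Fold changes are log2 ± SE and levels mean ± SD over 3 libraries. No exact permutation test was run, since with 3 libraries a group its smallest two-sided p is 0.1. The fits were first tried on counts simulated from the fitted values of the HEC and of the EO771 libraries. Such counts follow the model, so they cannot show where the real values depart from it. Values are given for members called in a comparison and for the regulators, Mylip and Npc1 throughout; other pathway genes are counted by list, with values for called ones. Another gene planned for these lists is not reported here. The members and lists were chosen with earlier results of these data known.

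EO771 libraries with the same replicate number deviated together (correlations of deviations from the group means from 0.11 to 0.33 in 3 pairs). The own number was the best in 6 of 6 cases. Those numbers were thus treated as pairs in a second fit, with the replicate number as a block. EO771 values are from the fit without the block, and the blocked value is added for Idi1 and where it changes a call. The labels do not state the pairing. Alternatives were edgeR 4.0.16, no filter on low values, the adjusted p alone, library total scaling, leaving out each library, a replicate block, endothelial values divided by their step, fits of 2 groups only, and EO771 size factors without mitochondrial genes.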

Additional observations from a re-analysis of the deposited data

Results flagged for a closer look

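In 10 of the 28 genes HECs and BECs differed in their tumour change, by the interaction term of the DESeq2 fit with an absolute log2 value over 1. Among all genes tested, 12.1% were called lower and 11.2% higher in this term. The interaction, the change in HECs less that in BECs, was −1.39 for Acat2, −1.79 for Hmgcs1, −1.43 for Mvd, −1.00 for Fdps, −1.88 for Fdft1, −1.21 for Cyp51, −1.56 for Tm7sf2 and −1.04 for Dhcr7 among the synthesis genes, −1.26 for Insig1 among the regulators and −1.23 for Npc1 among the uptake genes. The calls of Fdps and Dhcr7 sat near the fold threshold and were lost in several fits that left out 1 library. In Mvd, Fdft1 and Npc1 the gene rose in BECs and fell in HECs, each past the adjusted p. Groups of 3 libraries were too small for a test of single libraries that stand apart.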

How the results depend on the processing

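Over 28 genes and 6 comparisons, 2122 of 2295 values under alternatives kept their direction and their side of the threshold, 30 lost a call, 113 gained 1 (43 without the call by adjusted p alone) and 30 changed sign. Counts of genes called by adjusted p alone were 2 higher and 19 lower for HEC normal against BEC normal, 1 higher for HEC tumour against BEC tumour, 3 higher and 7 lower for HEC tumour against HEC normal, 22 higher and 2 lower for BEC tumour against BEC normal, 2 higher and 20 lower for the interaction, and 19 higher for 12-HETE. With edgeR, 0 genes were called higher for HEC tumour against HEC normal. Leaving out 1 library gave 0 to 1 gene called higher for HEC normal against BEC normal, where Tm7sf2 entered without BEC normal replicate 2 (1.01), 0 to 1 for HEC tumour against HEC normal and 3 to 8 for 12-HETE, the lowest without vehicle replicate 2. It gave 10 to 11 called lower for HEC normal against BEC normal, 19 to 21 for HEC tumour against BEC tumour and 9 to 12 for the interaction, and 5 to 8 called higher for BEC tumour against BEC normal. By adjusted p alone, leaving out 1 library gave 19 to 22 higher for BEC tumour against BEC normal, 5 to 7 lower for HEC tumour against HEC normal and 15 to 20 higher for 12-HETE. Values just short of a 2-fold change passed it without 1 library in BEC tumour against BEC normal (Fdft1 at 1.08 and 1.10, without BEC normal or BEC tumour replicate 3, Dhcr7 at 1.05, without the latter, and Lss), in HEC against BEC (Srebf2 without and Ebp and Srebf1 with tumour) and in the interaction (Lss, Msmo1, Ebp and Srebf2).

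Signs changed in values that had passed no test, near 0 apart from those of Mylip. Its fitted values rest on HEC counts at or near 0 and are not read as folds. With edgeR, Sc5d was 0.00 between HEC normal and BEC normal. With library total scaling, Mvk was 0.01 and Nsdhl 0.05 in HECs with tumour, Pmvk was 0.01 in the interaction, and Msmo1 and Scap were −0.01 with 12-HETE. Over the fits that left out 1 library, Fdft1 ran from −0.28 to 0.02 and Sc5d from −0.11 to 0.01 between HEC normal and BEC normal. In HECs with tumour Hmgcs1 ran from −0.47 to 0.12, Lss from −0.12 to 0.16, Nsdhl from −0.07 to 0.03, Ggps1 from −0.03 to 0.08 and Mylip from −3.36 to 0.00. In the interaction Pmvk ran from −0.14 to 0.11, Idi1 from −0.09 to 0.36 and Mylip from −2.92 to 0.57. With 12-HETE Fdft1 ran from 0.00 to 0.37, Msmo1 from −0.09 to 0.10, Ggps1 from 0.00 to 0.12, Srebf2 from −0.27 to 0.29, Scap from −0.05 to 0.17 and Npc1 from −0.06 to 0.11.

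With the replicate block, 8 genes were called higher with 12-HETE rather than 7, the addition being Stard4. By adjusted p alone Sc5d and Insig1 entered and Mylip left, and the block changed no other call there. In the endothelial table, correlations of same-numbered libraries ran from −0.03 to 0.13, with the own number the best in 22 of 36 cases. Whether these numbers mark pairs is not settled, and they were not treated as pairs. With the block 6 genes were still called higher with tumour in BECs.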
